A study of Mus musculus with 22 samples.

Results

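The colon of mice that drank HMLS water containing dextran sulfate sodium (DSS) was compared with the colon of undiseased mice, using 12 of the 22 RNA-seq libraries of the study. The members were chosen by their labels alone: the 4 libraries labelled HMLS (replicates 3, 6, 7 and 8) and the 8 labelled CON (replicates 1 to 8). All animals were wild type BALB/c mice with a labelled age of 5 weeks, and all RNA came from colon. CON mice had ordinary diet and distilled water for 3 weeks. HMLS mice had diet and the water called HMLS, described only as a deep sea water sample, for 3 weeks, and 5% DSS was dissolved in that water in the week before the animals were killed (1 week). The remaining libraries, used here only for direct comparison, were DSS in distilled water (DSS, 5 libraries) and DSS in a different deep sea water sample (TM, 5 libraries), on the same schedule. No group received HMLS water without DSS, so the water and the DSS cannot be told apart in HMLS against CON. Time of day at killing, sex and the region of colon are not given in the sources used here. Nor is it said that each library came from a separate mouse, so the p-values measure the spread between these libraries.

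DSS is a sulfated polysaccharide that damages the colonic epithelium when given in drinking water. Loss of the barrier lets luminal bacteria reach the mucosa, and the tissue answers with secreted antimicrobial proteins, recruited leukocytes and a remodelled crypt in which the Lgr5-positive stem cells are lost and replaced by regenerating cells. The normal colon holds absorptive colonocytes, mucus-secreting goblet cells and rare enteroendocrine cells, on a stroma of fibroblasts, vessels, lymphoid cells and muscle. In RNA from whole tissue, fewer cells of a type and less RNA per cell cannot be told apart.

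The 12 libraries held 48872220 to 64226018 reads each. Reads mapped at 88.8 to 90.5% in HMLS and at 89.9 to 91.9% in CON, a difference of -1.14 percentage points (exact permutation test, two-sided, p = 0.0364). Genes at 1 FPKM or more (fragments scaled to transcript length and mapped library size) numbered 12436 to 12852 in HMLS and 12797 to 13195 in CON (two-sided exact permutation test, p = 0.00808). A fit with the mapped percentage as a covariate is given below where it changed a count or a call, and the part of the number of genes detected was not tested. The label colon was checked against its defining markers: Car1 lay at 3126 to 7531 FPKM in the 12 libraries, Epcam at 617 to 891, Cdx1 at 82.3 to 148 and Cdx2 at 75 to 141, all present in every library. Hoxb13, a marker of the most distal colon, was listed at 0 in all 4 HMLS libraries and at 0 to 63 in CON with a median of 0.0831. On the first principal component of the genes tested, which held 42.1% of the variance, all 4 HMLS libraries lay above all 8 CON libraries. CON replicate 8 lay nearest to HMLS (-2.09, against 20.2 for HMLS replicate 7 and -32.6 for CON replicate 1) and also had the lowest values of CON for several immune genes, so its values are given where a result rests on them.

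Differences were tested with limma on log2(FPKM + 1), so each fold change is on that scale and understates the change of genes at low level. Genes reaching 1 FPKM in 4 or more of the 12 libraries were tested. Some of the 8 CON libraries can meet this alone, while HMLS needs all 4 of its own. A gene near 0 in 1 group thus enters more easily when it is lower in HMLS, and the counts below share this bias. A gene counts as called when its Benjamini-Hochberg adjusted p over all genes tested lies under 0.05. Of 13400 genes tested, 4565 were called (34.1%): 2339 were higher in HMLS (17.5%) and 2226 lower (16.6%). Changes of 2-fold or more were fewer, with 170 genes higher (1.27%) and 315 lower (2.35%). All 4 HMLS libraries lay above all CON libraries for 1047 genes (7.81%) and below them for 966 (7.21%). At an unadjusted p under 0.05 the count was 6070 (45.3%). A set of 2610 genes was called in every one of the 12 fits that left out 1 library. The count itself was 3106 without HMLS replicate 8 and 4808 without CON replicate 8. The balance between higher and lower depended on the scaling: 51.2% of the calls were higher in HMLS with the values as deposited, and 26.1% after scaling each library to the upper quartile of its genes above 0, which gave a median difference over all genes of -0.14. With the upper quartile of a fixed set of genes, chosen after seeing the data, the share was 31.7%. Requiring a fold above 1.2 in the limma test left 1034 calls. Group counts of the main fit are read below against 17.5% and 16.6%. A list's count under this required fold or with the mapped covariate is given where it moved by more than 1.5 times. Over all 13400 genes the required fold left 488 higher and 546 lower, and the covariate 1540 higher among 3147 calls. Upper quartile scaling gave 1258 higher and 3571 lower of 13449. List counts in those fits are to be read against these totals. Counts of 2 or fewer genes in a list moved by up to 3 genes when 1 library was left out.

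**Figure D1:**
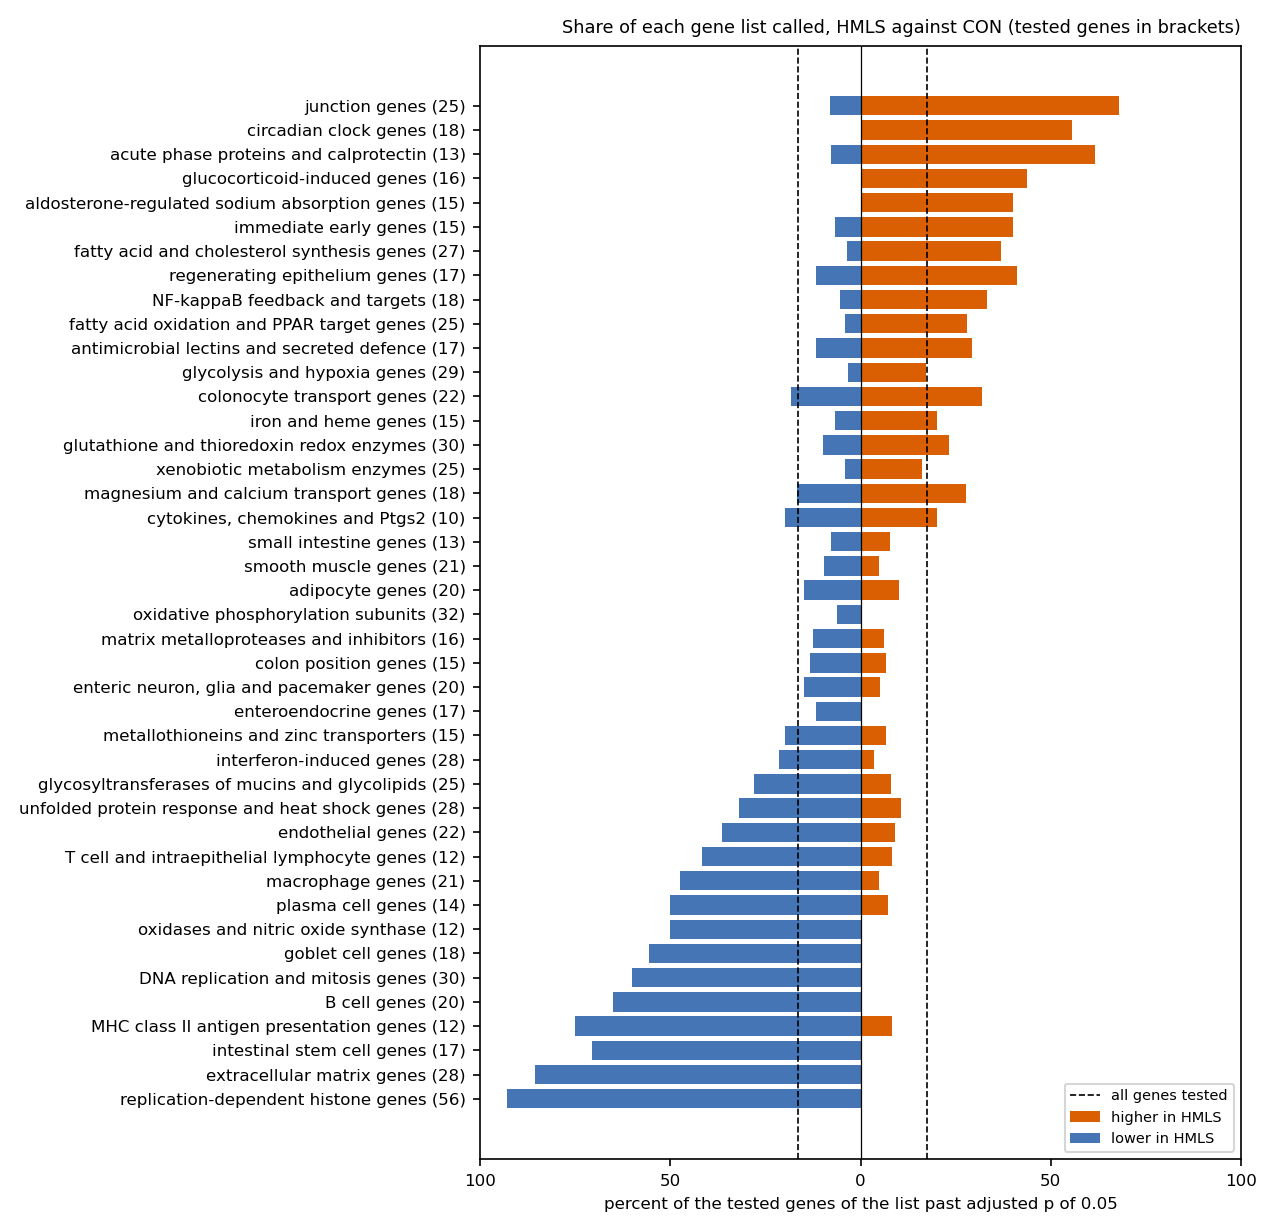
Share of the tested genes of each list called higher (orange, to the right) or lower (blue, to the left) in HMLS than in CON, for lists with 10 or more tested genes, whose number stands in brackets. Dashed lines mark the shares over all genes tested, 17.5% higher and 16.6% lower. Junction genes reach 68% higher and acute phase genes 61.5%, while histone genes reach 92.9% lower and extracellular matrix genes 85.7%.

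**Figure D2:**
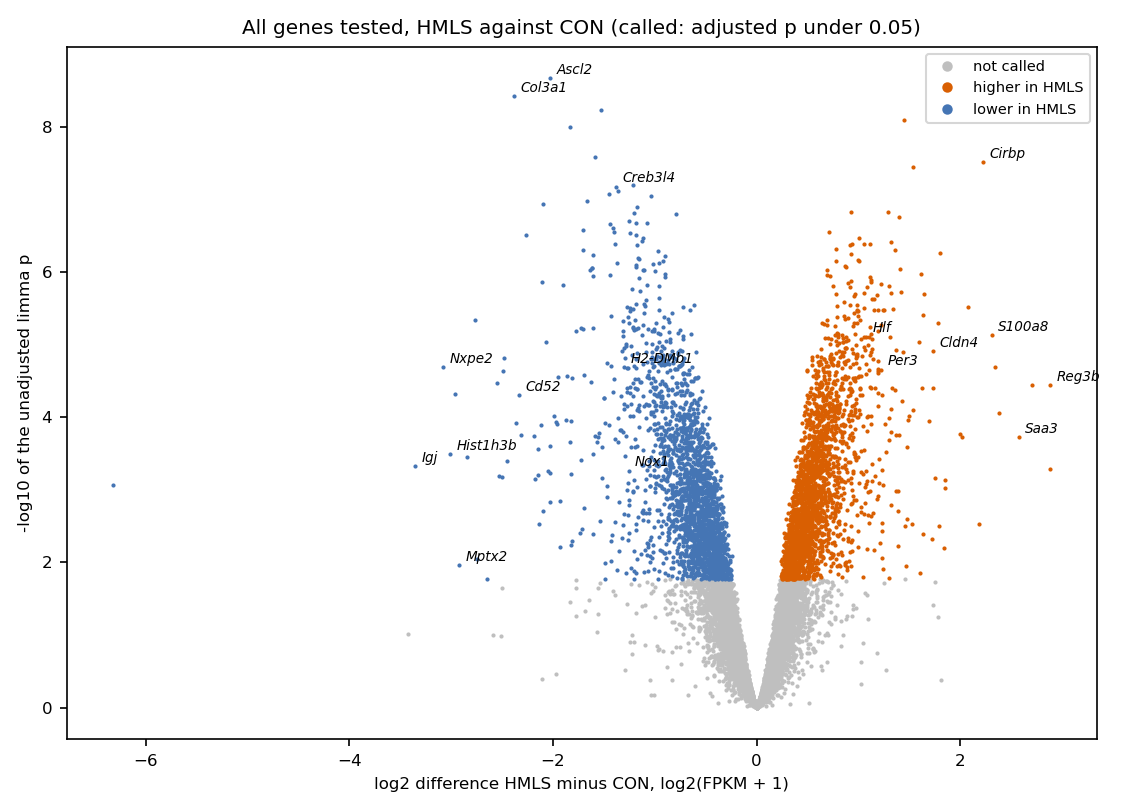
Each point is 1 of the 13400 genes tested. The x axis is the difference HMLS minus CON in log2(FPKM + 1) and the y axis is -log10 of the unadjusted limma p. Ascl2 and Col3a1 lie far to the left with small p, and Cirbp and Reg3b lie to the right.

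The largest increase among antimicrobial genes was that of Reg3b, a C-type lectin that colonocytes secrete against bacteria. Reg3b stood at 4362, 5384, 5787 and 14454 FPKM in HMLS replicates 3, 6, 7 and 8, against a lowest, median and highest value of 422, 1048 and 1764 in CON. All 4 HMLS libraries lay above CON, and the difference of 2.88 ± 0.45 (log2, SE) had an adjusted p of 0.001. Reg3b lies at chr6:78370657-78373466 (mm10, + strand) in a cluster of 4 Reg3 genes between 78370657 and 78468872, all in the annotation of the same build.

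Reg3g, a neighbouring lectin that binds Gram-positive bacteria, stood at 272, 859, 776 and 2478 FPKM, with CON from 102 to 382 around a median of 288. Replicate 3 lay within the CON range, and the increase of 1.84 ± 0.55 (adjusted p = 0.024) was lost without HMLS replicate 6 or 8 (limma adjusted p of 0.0559 to 0.0754). Reg3a reached 3.37, 1.75, 1.8 and 16.3 FPKM, with CON at 0.103 to 2.07, so replicates 6 and 7 lay within the CON range. Its difference of 1.53 ± 0.42 (adjusted p = 0.014) fell to 0.92 without HMLS replicate 8, which held the highest value for all 3 lectins. Lyz1, the lysozyme of Paneth cells, fell by 1.06 (adjusted p = 0.014), a call lost without HMLS replicate 8 (limma adjusted p = 0.0512). Over the whole list of antimicrobial and secreted defence genes, 5 of 17 tested were higher and 2 lower, with a median of -0.10. The higher count was 3 without HMLS replicate 8, 1 with the mapped covariate and 1 with the required fold.

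Of 13 acute phase and calprotectin genes tested, 8 were higher and 1 lower, with a median difference of 0.78. Saa3, a serum amyloid A made by colonocytes and macrophages, stood at 31.3, 115, 13.2 and 25.9 FPKM, all above the CON range of 2.24 to 9.72 (2.57 ± 0.48, adjusted p = 0.0025). S100a8, a calprotectin subunit abundant in neutrophils, stood at 8.32, 8.33, 1.34 and 5.8 FPKM, against 0 to 0.896 in CON with a median of 0. Its difference was 2.31 ± 0.34 (adjusted p = 0.00051), but with only these 4 libraries above 1 FPKM it left the filter when any HMLS library was dropped. Lcn2, which captures bacterial siderophores, was uneven: 13, 7.31, 0.18 and 5.13 FPKM, with CON at 0.223 to 1.14. HMLS replicate 7 lay below every CON library and the other 3 above (1.79 ± 0.49, adjusted p = 0.015). Serpina3n, a secreted serine protease inhibitor, stood at 23.9, 14.9, 3.48 and 10.4 FPKM against 2.43 to 5.19, with replicate 7 inside the CON range (1.39 ± 0.33, adjusted p = 0.0073). S100a11, a calcium-binding protein, rose by 0.78 (adjusted p = 0.0096). The list count was 5 of 12 without HMLS replicate 3, 6 or 7, and 5 of 13 without CON replicate 1, 5 or 6. It was 4 of 13 with the mapped covariate, 4 of 15 with all 4 groups in the fit and 3 with the required fold. Of the 17 neutrophil genes in the table, 2 were tested, and the 1 that was higher is S100a8 itself. The summed level of those 17, S100a8 included, was 5.384 to 28.74 FPKM in HMLS and 3.149 to 5.126 in CON. S100a8 reached at most 8.33 FPKM in HMLS, so other members made up part of the highest sum. The sum without S100a8 is not given here. S100a9, the other calprotectin subunit, was not tested, nor was the part of neutrophils in the S100a8 result.

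Among oxidant-producing enzymes none of 12 tested was higher and 6 were lower, with a median of -0.42. Nox1, the epithelial NADPH oxidase, stood at 1.12, 0.711, 2.05 and 1.49 FPKM, all below the CON range of 2.23 to 10.8 (-1.26 ± 0.29, adjusted p = 0.0048). The phagocyte oxidase subunits Ncf4 (-0.87, adjusted p = 0.0025), Cybb (-0.87, adjusted p = 0.0071) and Ncf1 (-0.76, adjusted p = 0.009) fell too. Nos2, the inducible nitric oxide synthase, did not pass, at 0.911, 1.85, 1.25 and 0.891 FPKM against 0.263 to 1.62 (0.34 ± 0.20, adjusted p = 0.2), with replicate 6 above it. Duox2, the oxidase of the mucosal surface, did not pass either, at 30, 40.1, 21.2 and 41.9 FPKM against 16.2 to 58 (0.21 ± 0.32, adjusted p = 0.64). With the required fold 2 genes of the list were lower.

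Cytokines were mixed, with 2 of 10 tested higher, 2 lower (20% each, close to the shares of all genes) and a median of 0.14. Il18, kept as a precursor in resting epithelium, rose to 60.3, 93.4, 53 and 85.1 FPKM against 23.3 to 48.3 (1.13 ± 0.22, adjusted p = 0.002). Tnf, the central inflammatory cytokine, stood at 3.11, 2.63, 1.85 and 3.93 FPKM against 0.739 to 2.18 (0.69 ± 0.18, adjusted p = 0.0099), with replicate 7 inside the CON range. Ccl6, a macrophage chemokine, fell to 163, 45.1, 151 and 140.5 FPKM against 188 to 371 (-1.22 ± 0.29, adjusted p = 0.0073). Without HMLS replicate 6 its difference was -0.79. Tnfsf15, a TNF family ligand, fell by 0.55 (adjusted p = 0.0073). Ptgs2, the inducible cyclooxygenase, was at -0.41 (adjusted p = 0.055) and passed without HMLS replicate 8 or CON replicate 8. Il1b, at 1.54, 2.9, 0.439 and 0.822 FPKM against 0.325 to 2.25, was not called.

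Feedback and targets of NF-kappaB, the transcription factor downstream of TNF, were higher in 6 of 18 and lower in 1. Zc3h12a, a ribonuclease that degrades cytokine messages, stood at 18.5, 14.8, 8.9 and 18.9 FPKM against 3.82 to 7.37 (1.42 ± 0.19, adjusted p = 0.00026). Nfkbia, the inhibitor that holds NF-kappaB in the cytoplasm, stood at 119.5, 48.8, 51.3 and 94.9 against 27.7 to 42.9 (1.12 ± 0.21, adjusted p = 0.0017). Icam1, an adhesion molecule for leukocytes, was the member that fell, to 2.75, 2.41, 1.18 and 0.868 against 2.04 to 4.64 (-0.82 ± 0.20, adjusted p = 0.0065). The higher count was 3 with the mapped covariate and 2 with the required fold. Of 15 immediate early genes 6 were higher and 1 lower, with 3 higher with the mapped covariate and 1 with the required fold. Klf6 stood at 193, 140.4, 135 and 336 FPKM against 84.6 to 107 (1.004 ± 0.19, adjusted p = 0.0015), and the AP-1 members Jun (0.68, adjusted p = 0.0039) and Fosl2 (0.66, adjusted p = 0.003) rose too. Myc, the growth factor-induced transcription factor, was the member that fell, to 3.76, 3.89, 6.03 and 4.51 against 6.69 to 16.5 (-1.002 ± 0.20, adjusted p = 0.002).

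Interferon-induced genes were lower in 6 of 28 (21.4%, against 16.6% of all genes) and higher in 1. Irf7, an interferon regulatory factor, stood at 39, 37, 47 and 42.7 FPKM against 49 to 103 (-0.67 ± 0.17, adjusted p = 0.0084), and Oas2, an antiviral enzyme, fell by 0.74 (adjusted p = 0.0063). Psmb8, a subunit of the immunoproteasome, rose to 29.4, 42.3, 42.2 and 27.7 against 18.2 to 29.7 (0.61 ± 0.15, adjusted p = 0.008). The lower count was 3 without HMLS replicate 3 or 8, 3 with the mapped covariate, 2 with all 4 groups in the fit and 0 with the required fold.

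**Figure D3:**
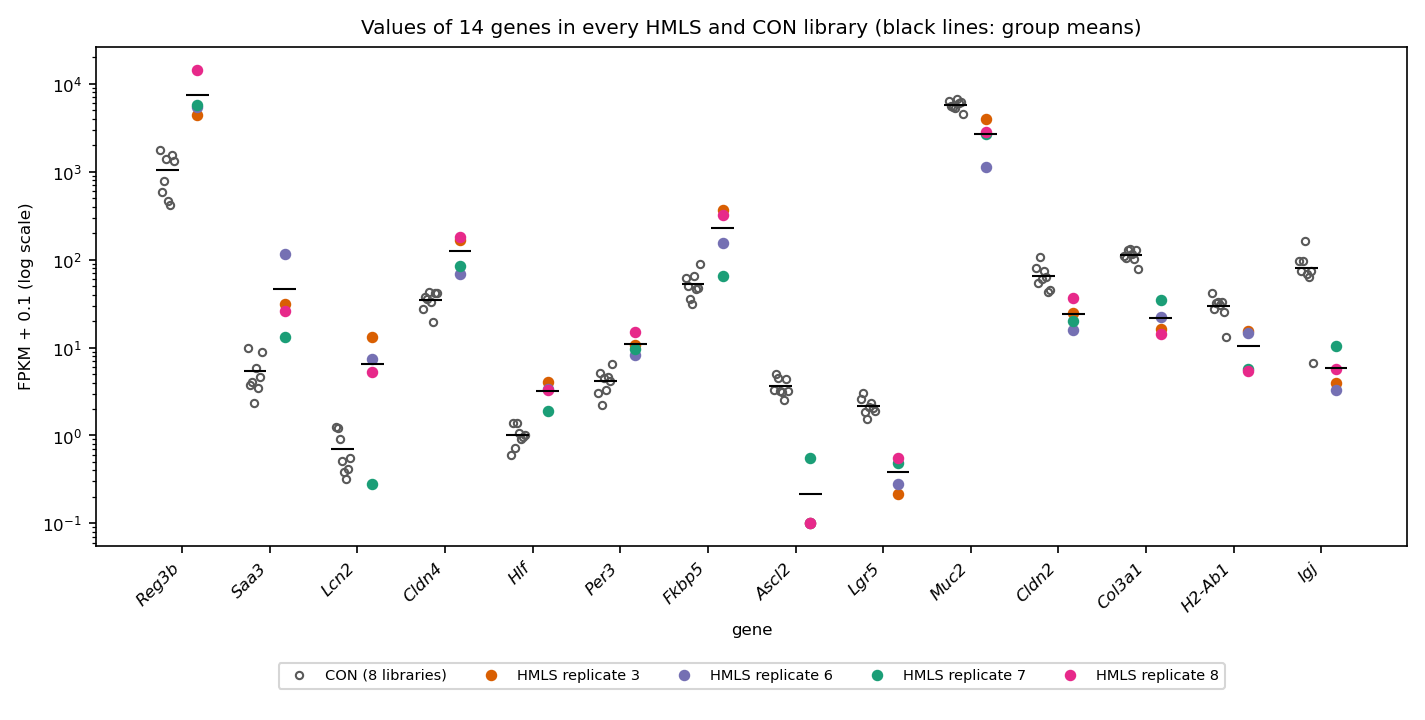
FPKM + 0.1 (log scale) of 14 genes in each CON library (open circles) and each HMLS library (coloured by replicate), with group means as black lines. Reg3b, Saa3, Cldn4, Hlf and Per3 show all 4 HMLS libraries above CON, and Ascl2, Lgr5, Muc2, Cldn2 and Col3a1 all 4 below.

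Stem cell genes of the crypt base fell with little spread. Of 17 tested, 12 were lower and none was higher, with a median of -0.93. For 9 of the 17 all HMLS libraries lay below all CON libraries (7.21% over all genes tested). In the fit of HMLS, DSS and TM, 14 genes of the list were tested. Some of the 17 thus passed the filter here only with CON libraries, which favours a lower call. Ascl2 (chr7:142966829-142969264, mm10, - strand), the transcription factor that sets stem cell identity, was listed at 0 in HMLS replicates 3, 6 and 8 and at 0.455 FPKM in replicate 7. CON held 2.43 to 4.88, and the difference of -2.03 ± 0.16 had an adjusted p of 2.5e-05. Lgr5, the receptor for R-spondin that marks these cells, stood at 0.118, 0.179, 0.383 and 0.456 FPKM against 1.42 to 2.96 (-1.25 ± 0.14, adjusted p = 0.00012). Axin2, a target and inhibitor of Wnt signalling, stood at 1.58, 2.18, 4.16 and 2.93 FPKM against 6.7 to 10.4 (-1.44 ± 0.16, adjusted p = 0.00012). Ephb3, which holds cells in the crypt base by repulsion, fell by 1.36 (adjusted p = 9.2e-05). The mean of the intestinal stem cell genes relative to CON was -0.81, -1.04, -0.73 and -0.80 in replicates 3, 6, 7 and 8, against -0.15 to 0.11 in CON.

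Genes of regenerating epithelium were higher in 7 of 17 and lower in 2. Areg, an EGF family ligand, stood at 18, 6.65, 6.64 and 38.2 FPKM against 1.43 to 5.67 (1.85 ± 0.43, adjusted p = 0.0069). Tgfa, another ligand of the EGF receptor, stood at 31.5, 26.5, 19.5 and 35.3 against 10.2 to 16.6 (1.02 ± 0.15, adjusted p = 0.00041). Plaur, the urokinase receptor, rose by 1.05 (adjusted p = 0.0052). The higher count was 4 without HMLS replicate 3 or 8, and also 4 with upper quartile scaling, with the mapped covariate and with the required fold.

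DNA replication and mitosis genes fell in 18 of 30 and rose in none, with a median of -0.74. Mcm6, a subunit of the replicative helicase, stood at 0.729 and 0.565 FPKM in replicates 3 and 6 and at 3.35 and 4.53 in replicates 7 and 8, all below the CON range of 5.8 to 19.9 (-1.97 ± 0.36, adjusted p = 0.0019). Mcm5 (-1.45, adjusted p = 0.002), Mcm2 (-0.97, adjusted p = 0.0026) and Ccnd1, the cyclin of the G1 phase (-0.96, adjusted p = 0.00056), fell as well. Mki67, which marks cells in cycle, stood at 3.18, 3.81, 8.55 and 13.2 FPKM against 7.84 to 28.2. Its difference of -1.05 ± 0.35 (adjusted p = 0.034) was lost without HMLS replicate 3 or 6 or CON replicate 3 or 5 (limma adjusted p of 0.0557 to 0.115). The list count was 9 without HMLS replicate 3, 8 without HMLS replicate 6, 11 after quantile normalization, 11 with all 4 groups in the fit and 6 with the required fold. Replicates 3 and 6 were the low libraries, with means over the DNA replication and mitosis genes of -1.14 and -1.19 against -0.50 and -0.30 in replicates 7 and 8. The CON means ran from -0.52 to 0.76, so replicates 7 and 8 lay inside the CON range.

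Replication-dependent histone genes are transcribed in S phase, and their messages end in a stem-loop without a poly(A) tail, so the total RNA kit used here can capture them. The group was examined after its values had been seen. Its members were taken by name (symbols beginning with Hist1h, Hist2h, Hist3h or Hist4h) and not by a check of each message. They include Hist3h2bb-ps, a pseudogene by its name. Of 68 genes with such names in the table, 56 were tested: 52 were lower in HMLS, none was higher and 4 did not pass, with a median of -1.57. For 37 of the 56 all HMLS libraries lay below all CON libraries (7.21% over all genes tested). The summed level of the 68 genes was 2599, 1899, 2192 and 2286 FPKM in HMLS replicates 3, 6, 7 and 8, and 3034 to 7763 in CON, with no overlap. Of the 54 Hist1 genes, all annotated on chromosome 13 between 21715763 and 23934851, Hist1h3b (histone H3) stood at 0.612, 3.76, 8.35 and 7.84 FPKM against 17.7 to 114 (-3.01 ± 0.59, adjusted p = 0.0035). Hist1h2ag (H2A) was listed at 0 in replicate 3 and stood at 1.35, 0.464 and 2.96 in the rest, against 6.1 to 40 (-2.96 ± 0.48, adjusted p = 0.0012). Hist1h2bm (H2B) stood at 1.76, 5.06, 15.2 and 11.1 FPKM against 27.8 to 139.9 (-2.85 ± 0.56, adjusted p = 0.0037), and Hist1h2bk at 4.33, 4.99, 7.09 and 8.54 against 20.6 to 97.8 (-2.55 ± 0.40, adjusted p = 0.00098). Hist1h3c (-2.50) and Hist1h2bj (-2.53) completed the histone genes among the 12 largest decreases. Copies of these genes are nearly identical, so reads can be split between them and the value of a single copy is uncertain.

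Promoter stretches of 2 H2B genes are shown because both genes fell and both hold the octamer ATTTGCAT, the element through which Oct1 acts on H2B transcription. Of 33 H2A and H2B genes with a promoter in the RefSeq table (GRCm38.p6), 14 (42.4%) hold the octamer on either strand within 250 bases before the start, and of 22 H3 and H4 genes none does. Over all genes of the table the share is 1.81%. The 100 bases before the start of these 2 genes, 5′ to 3′ with the octamer in capitals, lie at chr13:21721944-21722043 (Hist1h2bm, + strand, octamer starting 25 bases before the start) and chr13:22035721-22035820 (Hist1h2bk, + strand, 30 bases before).
Hist1h2bm: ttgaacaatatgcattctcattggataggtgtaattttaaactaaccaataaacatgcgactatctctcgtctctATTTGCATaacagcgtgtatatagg
Hist1h2bk: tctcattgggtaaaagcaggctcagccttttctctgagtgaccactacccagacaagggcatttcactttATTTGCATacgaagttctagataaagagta
A match describes only the letters of the window.

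Goblet cell genes fell in part. Of 18 tested, 10 were lower and none was higher, with a median of -0.95. Muc2 (chr7:141690340-141754693, mm10, + strand), the gel-forming mucin of colonic mucus, stood at 3935, 1140.2, 2717 and 2829 FPKM against 4539.6 to 6659 around a median of 5854. All 4 HMLS libraries lay below CON, with replicate 6 lowest (-1.24 ± 0.24, adjusted p = 0.0017). Spdef, the transcription factor of goblet cell maturation, stood at 26.1, 35.1, 40.9 and 38.4 FPKM against 56.8 to 130 (-1.30 ± 0.20, adjusted p = 0.00063). Creb3l4, a secretory pathway factor of the endoplasmic reticulum, fell by 1.38 (adjusted p = 8.9e-05), and Klk1, a kallikrein of goblet cells, by 1.36 (adjusted p = 0.0018). Clca3 of the table, which RefSeq now calls Clca1 and which is secreted with mucus, stood at 192, 153, 333 and 257 FPKM against 285 to 1509 (-1.43 ± 0.42, adjusted p = 0.021). That call was lost without HMLS replicate 3 or 6 (limma adjusted p of 0.0564 to 0.0656). Tff3, the trefoil peptide of goblet cells, did not move beyond its spread, at 1186, 1229, 1164 and 849.6 FPKM against 800.2 to 1629 (0.10 ± 0.17, adjusted p = 0.66). Zg16, a mucus lectin, stood at 4320.1, 2439, 3709 and 3451 FPKM, with CON at 2807 to 6127, and was not called. The mucin and the maturation factors were lower, while both of these abundant secreted products were not called. With the required fold 6 goblet cell genes were lower. Of 17 enteroendocrine genes 2 were lower (11.8%, below the 16.6% of all genes) and none was higher. The 2 were Tph1, which makes serotonin (-0.86, adjusted p = 0.026), and the prohormone convertase Pcsk1 (-0.68, adjusted p = 0.037). The Tph1 call was lost without HMLS replicate 3 or 6 and the Pcsk1 call in 8 of the 12 fits without 1 library (limma adjusted p of 0.0562 to 0.0718 and of 0.0548 to 0.131).

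Enzymes that build mucin and glycolipid sugars were called lower in 7 of 25 and higher in 2. St3gal4, a sialyltransferase, stood at 5.42, 3.13, 5.53 and 7.72 FPKM against 9.29 to 17 (-1.25 ± 0.18, adjusted p = 0.00043). B4galt1, a galactosyltransferase, rose to 74.8, 74.9, 39.4 and 82.1 FPKM against 26.7 to 37.9 (1.05 ± 0.16, adjusted p = 0.00052). The lower count was 4 without HMLS replicate 6, 3 with the mapped covariate and 2 with the required fold. St3gal5, which makes the ganglioside GM3 and is among the 12 largest increases, stood at 8.73, 44.6, 5.81 and 6.37 FPKM against 0.41 to 2.77 (2.38 ± 0.43, adjusted p = 0.0016), with replicate 6 far above the other 3. Nxpe2, a member of a family of neurexophilin-like proteins, fell to 6.37, 1.25, 10 and 8.43 FPKM against 17.6 to 78.9 (-3.08 ± 0.45, adjusted p = 0.00076). Its relative Nxpe5 fell by 1.06 (adjusted p = 0.0014). Mptx1 and Mptx2, mucosal pentraxins, were among the largest decreases (-2.65 and -2.92, adjusted p of 0.0498 and 0.0359) at 4.13 to 10.9 and 0.96 to 3.43 FPKM in HMLS. CON replicate 1 alone held 928 and 472 FPKM, against medians of 27.8 and 14.8. The Mptx1 call was lost in 11 of the 12 fits without 1 library and the Mptx2 call in 7 (limma adjusted p up to 0.117 and 0.0882).

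Junction genes, which seal and polarise the epithelium, were mostly higher: 17 of 25 tested rose and 2 fell, with a median of 0.58. For 11 of the 25 all HMLS libraries lay above all CON libraries (7.81% over all genes tested). Cldn4 (chr5:134945119-134946934, mm10, - strand), a sealing claudin of the surface epithelium, stood at 166, 68.3, 85.4 and 179 FPKM against 19.3 to 43 (1.73 ± 0.26, adjusted p = 0.00065). Pard6b, a polarity protein, stood at 38.2, 18, 16.1 and 44.8 FPKM against 6.14 to 11 (1.60 ± 0.24, adjusted p = 0.00056), and F11r, junctional adhesion molecule A, at 113, 132, 131 and 133 against 74.1 to 97.1 (0.58 ± 0.10, adjusted p = 0.00085). The 2 members that fell were both claudins that form pores for cations. Cldn15 stood at 16.7, 32.9, 47 and 25.8 FPKM against 77.6 to 115 (-1.70 ± 0.20, adjusted p = 0.00013), and Cldn2, a crypt claudin, at 24.8, 15.7, 19.9 and 36.4 against 43.2 to 108 (-1.41 ± 0.24, adjusted p = 0.0011). Cldn8, a sealing claudin of the distal colon, did not pass at 45.6, 25.6, 50.1 and 56.7 FPKM against 34.3 to 68.8 (-0.40, adjusted p = 0.15), though it passed without CON replicate 8. With upper quartile scaling the list had 13 genes higher and 3 lower, and with the required fold 8 higher.

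Ion and water transporters moved in both directions, with 7 of 22 higher, 4 lower and a median of 0.04. Slc9a3, the apical sodium-proton exchanger, rose to 222, 129.6, 165 and 311 FPKM against 50.7 to 117 (1.40 ± 0.28, adjusted p = 0.0024). Atp1b1, the beta subunit of the sodium pump, rose to 727, 642, 553 and 682 against 209 to 463 (1.19 ± 0.17, adjusted p = 0.00035). Aqp1, the water channel of vessels, fell to 22.5, 11.2, 23.4 and 28.6 against 36.2 to 70.1 (-1.33 ± 0.21, adjusted p = 0.00065), and Kcnn4, a potassium channel of crypt cells, fell by 1.40 (adjusted p = 0.00092). The count of higher genes was 4 without HMLS replicate 3 or 6, 3 without HMLS replicate 8, 4 with upper quartile scaling, 3 with the mapped covariate and 2 with the required fold, which also left 2 lower. Among genes of aldosterone-regulated sodium absorption 6 of 15 were higher and none lower, with 2 higher with the required fold. These included Usp2, a deubiquitinase (1.11, adjusted p = 0.00069), and Nedd4l, the ubiquitin ligase that removes the sodium channel from the membrane (0.51, adjusted p = 0.002). HMLS replicate 6 stood apart for surface transporters that were not called: Aqp8, a colonocyte aquaporin, reached 469 FPKM there against 11.2, 75.7 and 10.4 in replicates 3, 7 and 8. Slc26a3, the chloride-bicarbonate exchanger, reached 497 there against 65.9, 165 and 91.7. CON ranged from 19.3 to 262 and from 85.7 to 326 for these genes.

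Because the waters are labelled as deep sea water, genes of magnesium and calcium handling were read as a list: 5 of 18 were higher and 3 lower. The shares were 27.8% higher and 16.7% lower, the latter close to the 16.6% of all genes. Atp2b1, the calcium pump of the plasma membrane, rose to 114, 171, 177 and 148 FPKM against 66.3 to 95.5 (0.94 ± 0.14, adjusted p = 0.00045). Trpm7, a channel for magnesium and calcium, rose to 29.2, 39.7, 35.9 and 45.1 against 21.6 to 30.5 (0.55 ± 0.12, adjusted p = 0.0038), and Vdr, the vitamin D receptor, by 0.67 (adjusted p = 0.0087). Trpm6, the magnesium channel of the colonocyte surface, was at 13.4, 43.2, 22 and 10.6 FPKM against 8.7 to 16.2 and did not pass (0.52 ± 0.28, adjusted p = 0.17), with replicate 6 highest, and it passed without HMLS replicate 8. With upper quartile scaling 3 genes of the list were higher, and with the required fold 1. The lower count was 0 without HMLS replicate 6 or with the mapped covariate, and 1 without CON replicate 1 or 3.

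MHC class II genes, which present antigen, were mostly lower: 9 of 12 tested fell and 1 rose, with a median of -1.19. H2-Eb1, a beta chain of the presenting molecule, stood at 9.96, 8.13, 4.06 and 5.8 FPKM against 10.5 to 41.9 (-1.95 ± 0.31, adjusted p = 0.0009). H2-DMb1, which helps load peptide, stood at 0.967, 0.87, 0.714 and 0.222 against 1.2 to 4.33 (-1.30 ± 0.22, adjusted p = 0.00076). H2-Aa fell by 1.55 (adjusted p = 0.0023) and H2-Ab1 by 1.52 (adjusted p = 0.003), both with overlap. For H2-Aa HMLS replicate 3 stood at 21.3 FPKM, above the lowest CON value of 19.5, and for H2-Ab1 HMLS replicates 3 and 6 stood at 15.2 and 14.7, above the 13.2 of CON replicate 8. Macrophage genes were lower in 10 of 21 and higher in 1, with 6 lower with the required fold. Tyrobp, an adaptor of myeloid receptors, stood at 5.51, 5.34, 4.69 and 3.1 FPKM against 7.65 to 15 (-1.24 ± 0.18, adjusted p = 0.00035). Cx3cr1, the receptor of resident macrophages, fell by 1.29 (adjusted p = 0.0007), and Lyz2, the lysozyme of myeloid cells, fell by 1.28 (adjusted p = 0.0024). Emr1, a marker of mature macrophages, stood at 0.509, 0.631, 0.572 and 0.193 FPKM against 0.772 to 3.73 (adjusted p = 0.0029).

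B cell genes were lower in 13 of 20 and higher in none, with a median of -1.10. Of these 20 genes, 14 passed the filter in the fit of HMLS, DSS and TM. The rest passed here only with CON libraries, which favours a lower call. Cd52, a surface glycoprotein of lymphocytes, stood at 6.13, 1.97, 4.95 and 4.34 FPKM against 9.66 to 45.1 (-2.33 ± 0.39, adjusted p = 0.0012). Ltb, which organises lymphoid tissue, fell by 1.21 (adjusted p = 0.0074), Bank1, a scaffold of B cell receptor signalling, by 1.26 (adjusted p = 0.012) and Faim3, an Fc receptor for IgM, by 1.39 (adjusted p = 0.014). The CON libraries themselves differed widely: the mean of the B cell genes ran from -1.01 to 0.79 over CON and from -1.48 to -0.83 over HMLS. The list count was 5 and 6 without HMLS replicates 7 and 8, 8 without CON replicate 1, 2, 3 or 5, and 7 after quantile normalization. It fell to 2 with the mapped covariate and to 2 with the required fold.

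Plasma cell genes were lower in 7 of 14 and higher in 1. Igj (Jchain in RefSeq), the chain that joins secreted IgA, was the largest decrease of the named genes: 3.9, 3.22, 10.4 and 5.59 FPKM against a median of 74 and a highest value of 161 in CON (-3.35 ± 0.68, adjusted p = 0.0044). CON replicate 8, at 6.56, overlapped with HMLS. Mzb1, a chaperone of antibody assembly, was listed at 0 in HMLS replicates 7 and 8 and stood at 0.163 and 0.388 FPKM in replicates 3 and 6, with CON at 0.151 to 4 (-1.59 ± 0.32, adjusted p = 0.0024). Txndc5 (-0.91, adjusted p = 0.00075) and Derl3 (-1.05, adjusted p = 0.0053), which fold and clear proteins in the endoplasmic reticulum, fell too. Of T cell and intraepithelial lymphocyte genes 5 of 12 were lower and 1 higher. Itgb7, the homing integrin of the gut, fell by 0.99 (adjusted p = 0.0054), while Gzma, a granzyme of cytotoxic cells, rose by 0.75 (adjusted p = 0.018). The T cell count was 3 without HMLS replicate 6, 2 without HMLS replicate 8, 1 after quantile normalization, 2 with the mapped covariate and 1 with the required fold.

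**Figure D4:**
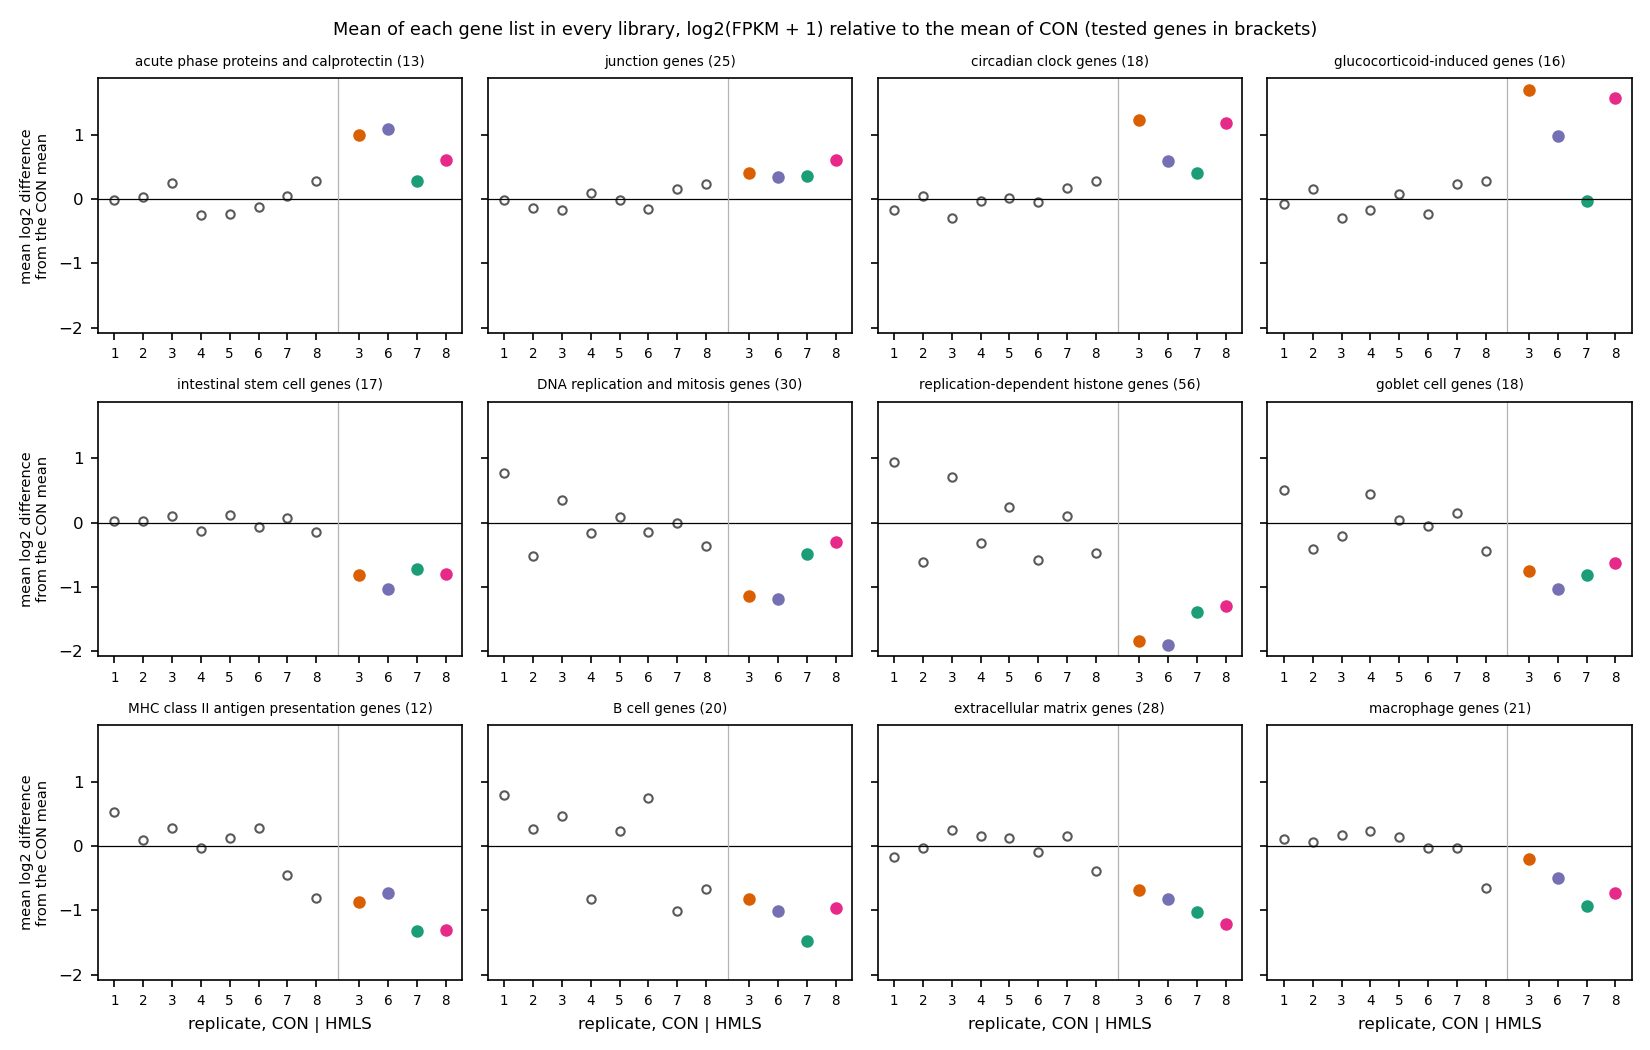
Mean of the tested genes of 12 lists in every library, as log2(FPKM + 1) relative to the CON mean (y axis), for CON replicates 1 to 8 (open circles) and HMLS replicates 3, 6, 7 and 8 (filled). Stem cell, histone and extracellular matrix genes lie below every CON library in all 4 HMLS libraries, while glucocorticoid-induced genes range from -0.03 in replicate 7 to 1.70 in replicate 3.

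Extracellular matrix genes fell almost throughout: 24 of 28 tested were lower and none was higher, with a median of -0.91. For 14 of the 28 all HMLS libraries lay below all CON libraries (7.21% over all genes tested). Col3a1 (chr1:45311538-45349706, mm10, + strand), a fibrillar collagen, stood at 16.3, 22, 34.7 and 14 FPKM against 77.1 to 133 (-2.38 ± 0.20, adjusted p = 2.5e-05). Col1a1, the main collagen of connective tissue, stood at 5.45, 8.89, 9.92 and 5.3 against 22.9 to 37.5 (-1.83 ± 0.17, adjusted p = 2.7e-05). Col6a3 (-1.53, adjusted p = 2.6e-05) and the basement membrane collagen Col15a1 (-1.59, adjusted p = 5.7e-05) fell as well. Smooth muscle genes, also of the wall, were called lower in 2 of 21 and higher in 1, and their summed level of 2303 to 4038 FPKM in HMLS overlapped with that of CON (2257 to 4191). The lower count was 4 without HMLS replicate 3 or CON replicate 1, and 1 without HMLS replicate 8, without CON replicate 3, 4, 5 or 7, or with the mapped covariate.

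Endothelial genes were lower in 8 of 22 and higher in 2. Sox18, a transcription factor of vessels, fell to 1.51, 1.54, 1.23 and 0.487 FPKM against 2.14 to 5.02 (-1.18 ± 0.19, adjusted p = 0.0007), and Kdr, the main VEGF receptor, fell by 0.91 (adjusted p = 0.0034). Edn1, the vasoconstrictor endothelin, rose to 29.7, 31.8, 32.1 and 35.8 against 14.6 to 22.9 (0.74 ± 0.12, adjusted p = 0.00074). Prox1, a factor of lymphatic vessels that enteroendocrine cells also express, rose by 0.62 (adjusted p = 0.0049). The lower count was 4 and 3 without HMLS replicates 7 and 8, 5 without CON replicate 1, 2, 3, 4 or 5, 13 without CON replicate 8, 4 after quantile normalization and 2 with the required fold.

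Fat genes were uneven among the libraries, with 3 of 20 lower (15%) and 2 higher (10%), both below the shares of all genes. The lower count was 1 without HMLS replicate 3 or 8, without CON replicate 2 or with the mapped covariate, and the higher count was 1 with the covariate and in 9 of the 12 fits without 1 library. Adipoq, the hormone of fat cells, stood at 3.14, 29.8, 10.2 and 1.35 FPKM against 3.96 to 64.9 (-1.57 ± 0.84, adjusted p = 0.17). Car3, a carbonic anhydrase of fat, stood at 5.02, 26.8, 66.3 and 8.39 against 23.6 to 442 (-2.75 ± 0.86, adjusted p = 0.031), a call lost without HMLS replicate 3 or 8 or CON replicate 2 (limma adjusted p of 0.0524 to 0.0941). Replicates 3 and 8 were the low libraries for both. Pck1, which makes glycerol for fat storage and is also an epithelial enzyme, fell by 0.74 (adjusted p = 0.0012), while Pnpla2, the main triglyceride lipase, rose by 1.32 (adjusted p = 0.0023). The summed level of the fat list was 285.7 to 903.5 FPKM in HMLS and 303.6 to 1879 in CON. Clps, colipase of the pancreas, fell to 4.86, 0.426, 3.17 and 2.5 FPKM against 10.4 to 39.9 (-2.77 ± 0.37, adjusted p = 0.00041).

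Of 18 circadian clock genes tested, 10 were higher and none lower, with a median of 0.99. The mean of the circadian clock genes relative to CON was 1.22, 0.59, 0.40 and 1.19 in replicates 3, 6, 7 and 8. The count was 6 without HMLS replicate 8 and 4 with the required fold. The clock runs on a loop in which CLOCK and its partner switch on Per, Cry and other repressor genes through E-boxes, and in which the factors Dbp, Tef and Hlf act on D-boxes. Hlf stood at 4, 3.31, 1.78 and 3.16 FPKM against 0.505 to 1.29 (1.07 ± 0.16, adjusted p = 0.00052). Tef stood at 26.9, 22.1, 18.9 and 30.5 against 5.14 to 20.6, where CON replicate 8 was the highest and overlapped with replicate 7 (1.54 ± 0.28, adjusted p = 0.0015). Per3, a period gene, stood at 10.7, 8.06, 9.58 and 14.8 against 2.12 to 6.45 (1.22 ± 0.20, adjusted p = 0.00079), and Cry2, a repressor, at 31.1, 14.7, 8.25 and 28.8 against 4.97 to 8.11 (1.37 ± 0.27, adjusted p = 0.0024). Per1 (1.64, adjusted p = 0.018) and Ciart (1.15, adjusted p = 0.012), named after their values were seen because their promoters are shown, were less even. Replicate 7 lay inside the CON range for Per1, and replicates 6 and 7 did for Ciart. Per1 was lost without HMLS replicate 3 or 8 and Ciart without HMLS replicate 8 (limma adjusted p of 0.0527 to 0.0646).

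The promoter stretches of clock genes that rose are shown for their clock elements. In 250 bases before the start, both strands read, the E-box CACGTG is in 5 of the 16 clock genes with a promoter in the table (31.2%) and in 6.86% of all genes of the table. The D-box, searched as TTATGTAA, TTACATAA and TTACGTAA, is in 1 clock gene (6.25%) and in 1.1% of all genes of the table. It is also in 4 of 61 histone genes with a promoter in the table (6.56%), a group that was mostly lower. The windows, 5′ to 3′ with the element in capitals (GRCm38.p6, from RefSeq), lie at chr11:69098749-69098848 (Per1, + strand), chr15:81811234-81811333 (Tef, + strand, 1 of its 2 starts), chr3:95882259-95882358 (Ciart, - strand) and chr4:151044796-151044895 (Per3, - strand, D-box).
Per1: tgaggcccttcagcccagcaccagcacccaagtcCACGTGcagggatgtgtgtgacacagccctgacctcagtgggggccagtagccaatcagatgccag
Tef: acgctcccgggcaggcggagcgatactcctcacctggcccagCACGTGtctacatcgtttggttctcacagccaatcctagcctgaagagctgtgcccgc
Ciart: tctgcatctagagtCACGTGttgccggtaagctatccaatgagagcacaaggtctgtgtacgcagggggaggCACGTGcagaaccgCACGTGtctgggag
Per3: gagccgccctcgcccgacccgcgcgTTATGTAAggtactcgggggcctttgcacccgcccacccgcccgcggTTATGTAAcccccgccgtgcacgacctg
Ciart holds 3 E-boxes, starting 116, 58 and 44 bases before its start, Per1 and Tef 1 each (166 and 138 bases before), and Per3 2 D-boxes (205 and 158 bases before).

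Genes that glucocorticoid hormone induces were higher in 7 of 16 and lower in none, with a median of 1.11. The HMLS libraries differed widely, with means of the glucocorticoid-induced genes of 1.70, 0.98, -0.03 and 1.56 in replicates 3, 6, 7 and 8, and the count was 11 without HMLS replicate 7 and 4 with the required fold. Fkbp5, a co-chaperone of the receptor, stood at 364, 153, 64.4 and 325 FPKM against 31.1 to 88.7 (1.85 ± 0.42, adjusted p = 0.0058). Ddit4, an inhibitor of mTOR, stood at 116, 53.4, 17.6 and 89.9 against 7.98 to 15.9 (2.02 ± 0.38, adjusted p = 0.0025). Cdkn1a, the cell cycle inhibitor p21, stood at 141, 48.3, 67.6 and 165 against 11.4 to 47.9 (1.99 ± 0.38, adjusted p = 0.0024), and Errfi1, a brake on EGF receptor, rose by 1.197 (adjusted p = 0.00049). Gdf15, a stress hormone that lowers feeding, stood at 12.5, 1.85, 0.951 and 28.2 against 0.189 to 1.27 (2.18 ± 0.59, adjusted p = 0.014). It left the filter without HMLS replicate 3, 6 or 8 or CON replicate 5. Replicates 3 and 8 were the high libraries for each of these genes and replicate 7, or for Cdkn1a replicate 6, the lowest.

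Cirbp rose, and 2 heat shock proteins fell. Cirbp (chr10:80165985-80172786, mm10, + strand), an RNA-binding protein induced by mild cold, stood at 186, 97.5, 74.8 and 142 FPKM against 15.9 to 31.8 (2.23 ± 0.21, adjusted p = 5.9e-05). Hsp90aa1, the inducible HSP90, stood at 47.4, 48.5, 68.3 and 53.3 against 101 to 243 (-1.17 ± 0.20, adjusted p = 0.00092), and Hspa8, a constitutive HSP70, at 450.1, 510.2, 591 and 484 against 734 to 1608 (-0.86 ± 0.17, adjusted p = 0.0021). The highest CON value of both was that of replicate 1. Dnajb9, a co-chaperone of the endoplasmic reticulum, rose by 0.87 (adjusted p = 0.00092). Of 28 heat shock and unfolded protein response genes 9 were lower and 3 higher, with 3 lower with the required fold. After upper quartile scaling 18 were lower, as were 3571 of all 13449 genes tested. After quantile normalization 14 were lower.

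The 12 largest increases also held the 4 genes that follow. AI747448, called Clca4b in RefSeq (chr3:144910921-144932529, mm10, - strand) and a relative of the goblet cell gene above, stood at 17.1, 14.2, 7.48 and 96.2 FPKM against 0.591 to 7.97 (2.88 ± 0.61, adjusted p = 0.0047). Ctla2a, an inhibitor of cysteine proteases, stood at 169, 149, 53.7 and 55.2 against 7.54 to 29.2 (2.71 ± 0.43, adjusted p = 0.001). Apod, a carrier of small lipids, stood at 28, 16.7, 6.73 and 17.7 against 0.833 to 5.51 (2.34 ± 0.37, adjusted p = 0.00076). All 4 HMLS libraries exceeded CON for Ctla2a and Apod, and 3 of 4 for AI747448. Rbm14-rbm4, a read-through transcript that overlaps its parent genes, stood at 4.28, 3.33, 4.96 and 4.54 FPKM against 0 to 2.36 (2.08 ± 0.29, adjusted p = 0.00034), and reads cannot be assigned to it with certainty.

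Fatty acid and cholesterol synthesis genes were higher in 10 of 27 and lower in 1: Hmgcs1 stood at 56.7, 59.3, 57.2 and 85 FPKM against 20 to 45.4 (0.98 ± 0.18, adjusted p = 0.0013). Srebf2, a transcription factor of sterol synthesis genes, rose by 0.77 (adjusted p = 0.0015). The synthesis count was 6 with the mapped covariate and 4 with the required fold. Fatty acid oxidation genes were higher in 7 of 25 (3 with the required fold) and lower in 1, with Acadl at 107, 143, 106 and 135 FPKM against 48.4 to 99.1 (0.92 ± 0.16, adjusted p = 0.0011) and the coactivator Ppargc1a up by 0.80 (adjusted p = 0.0021). Redox enzymes were higher in 7 of 30 (23.3%, against 17.5% of all genes, and 1 gene with the required fold) and lower in 3. Gclc, the catalytic subunit that starts glutathione synthesis, stood at 152, 90.8, 63.7 and 116 FPKM against 34.5 to 57.1 (1.34 ± 0.19, adjusted p = 0.00035), its partner Gclm rose by 0.66 (adjusted p = 0.003) and Txnrd1, thioredoxin reductase, by 0.65 (adjusted p = 0.0031).

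Among xenobiotic enzymes 4 of 25 (16%) were higher and 1 lower, with 9 higher without HMLS replicate 3 and 1 with the required fold. The higher share in the main fit lay below the 17.5% of all genes. Abcb1a, the drug efflux pump, stood at 506, 533, 621 and 506 FPKM against 227 to 425 (0.93 ± 0.15, adjusted p = 0.00064). Cyp3a13, a cytochrome P450 (0.90, adjusted p = 0.0058), and Nr1i2, a xenobiotic receptor (0.57, adjusted p = 0.0047), were also higher. Glycolysis and hypoxia genes were higher in 5 of 29 and lower in 1, and the higher share lay close to the 17.5% of all genes. Hk2, the inducible hexokinase, rose to 37.5, 45.1, 25.1 and 45.8 FPKM against 14.2 to 25.2 (0.97 ± 0.17, adjusted p = 0.00095), while Pgam1, phosphoglycerate mutase, fell by 0.71 (adjusted p = 0.0055). The higher count was 2 without HMLS replicate 6, 8 without CON replicate 8, 2 with the mapped covariate and 1 with the required fold. Subunits of oxidative phosphorylation were lower in 2 of 32 and higher in none, below the 16.6%. With upper quartile scaling 13 of the 32 were lower, as were 3571 of all 13449 genes tested. Quantile normalization called 4325 genes, 52.6% of them higher, and 10 of the 32 were lower.

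With the mapped percentage as a covariate, these genes described above were no longer called (limma adjusted p of 0.0528 to 0.31): the defence genes Reg3g, Reg3a and Lyz1, the acute phase genes Lcn2, Serpina3n and S100a11, the cytokines Tnf, Ccl6 and Tnfsf15, and Irf7 and Psmb8. The same held for Areg, Mki67, Mptx1, Mptx2, Tph1, Pcsk1, the B cell genes Bank1 and Faim3, and Car3, Per1 and Gdf15. The Reg3g difference was 1.003 in that fit, and that of Tph1 -0.53. With a fold above 1.2 required, all of these except Serpina3n, Ccl6 and Areg were not called either (limma adjusted p of 0.0509 to 0.241). Nor were Cybb, Ncf1, Clca3, Nedd4l, Gzma, Prox1, Ciart, Gclm, Txnrd1, Nr1i2, Cyp3a13, Trpm7, Vdr, Icam1, Fosl2, Jun, Oas2 and Pgam1.

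The direct test against DSS in distilled water called none of 13341 genes (0%), with 740 (5.55%) at an unadjusted p under 0.05 and a smallest adjusted p of 0.849. Against TM the count was also 0 (0%), with 1260 (9.44%) at an unadjusted p under 0.05 and a smallest adjusted p of 0.278. DSS, HMLS and TM entered 1 limma fit, and no other tool was run. Reads mapped at 82.3 to 88.9% in DSS, 88.8 to 90.5% in HMLS and 89.5 to 92.7% in TM. The differences from DSS and TM given below are not adjusted for this. The 95% interval of a difference from DSS, not adjusted for the number of genes tested, reached a median of 0.39 to either side (log2). Much larger differences also went uncalled, as the genes given below show. The lack of calls therefore does not show that HMLS and DSS were alike. Without HMLS replicate 3 the counts were 1 against DSS and 3 against TM. DSS against CON, which shares the 8 CON libraries, called 27.1% of its 13483 genes, 14% higher and 13.1% lower, and 41% lay at an unadjusted p under 0.05.

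The counts against CON are given side by side for HMLS and DSS. Junction genes were higher in 17 of 25 and lower in 2 in both HMLS and DSS. Stem cell genes were lower in 12 of 17 in HMLS and in 14 of 17 in DSS, and matrix genes in 24 and 19 of 28. Goblet cell genes were lower in 10 of 18 in HMLS and in 2 of 18 in DSS, DNA replication and mitosis genes in 18 and 6 of 30, and histone genes in 52 and 9 of 56. Oxidases were higher in none of 12 in HMLS and in 5 of 13 in DSS, and glycolysis and hypoxia genes in 5 and 14 of 29. Such counts depend on the threshold. The median against CON was -0.95 in HMLS and -0.31 in DSS for goblet cell genes, and -0.74 and -0.50 for DNA replication and mitosis genes. For histone genes it was -1.57 and -0.82, with 53 and 27 of 56 lower at an unadjusted limma p under 0.05. In the direct test (HMLS minus DSS) the median was -0.50 for goblet cell genes, -0.67 for histone genes and -0.32 for glycolysis and hypoxia genes. It was -0.35 for DNA replication and mitosis genes and -0.36 for oxidases, and no member of these lists was called.

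The genes with the smallest p against DSS are given as values, since none passed. Higher in HMLS were Wwp1, a ubiquitin ligase, at 20.7, 24, 25.5 and 26.4 FPKM against 14.7 to 18.4 in DSS (0.51, 95% interval 0.28 to 0.73, limma adjusted p = 0.85), Scd1, the stearoyl-CoA desaturase, and Cox8b, a cytochrome oxidase subunit (1.09, 0.54 to 1.64). Scd1 stood at 8.19, 21.6, 15.3 and 14.2 FPKM in HMLS, 5.6 to 7.88 in DSS and 13.2 to 178 in CON (0.90, 0.48 to 1.32). All 4 HMLS libraries lay above all 5 DSS libraries for it, and against CON it was not called (-1.56, adjusted p = 0.11). Lower in HMLS were Cdkn2d, a cell cycle inhibitor (-0.63, -0.93 to -0.33), Trim27, a ubiquitin ligase (-0.47, -0.72 to -0.22), and C2cd4b, a gene induced by inflammation (-2.02, -3.11 to -0.92).

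Several inflammatory genes had lower values in HMLS than in DSS without passing the test. The values are not adjusted for the mapped percentage, which was 82.3 to 88.9% in DSS and 88.8 to 90.5% in HMLS. Nos2 stood at 1.26 to 21.3 FPKM in DSS around a median of 7.41, with all but 1 DSS library above the 0.891 to 1.85 of HMLS (-1.88, -3.10 to -0.66, unadjusted p = 0.0052, adjusted p = 0.85). Duox2 stood at 35.5 to 169 in DSS and 21.2 to 41.9 in HMLS (-1.30, -2.17 to -0.43, adjusted p = 0.85). Tnf stood at 3.39 to 8.06 in DSS and 1.85 to 3.93 in HMLS (-0.84, -1.39 to -0.29, adjusted p = 0.85), and Reg3b at 7637 to 25761 in DSS (-1.14, -2.01 to -0.27). Against CON, the DSS difference was 2.22 for Nos2, 1.51 for Duox2 and 1.53 for Tnf, and the HMLS difference 0.34, 0.21 and 0.69. Edn1 lay at 10.5 to 25.9 FPKM in DSS, below all 4 HMLS libraries (1.05, 0.50 to 1.61). Muc2 (-0.82, -1.68 to 0.03), H2-Ab1 (-1.12, -1.96 to -0.29), Cd52 (-1.09, -1.74 to -0.44) and Cldn2 (-0.67, -1.31 to -0.03) had lower estimates in HMLS than in DSS, each with an adjusted p of 0.85 or above. None of these differences from DSS can be called at this number of libraries.

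Against TM the smallest p belonged to Ets1, a lymphoid transcription factor (-0.85, 95% interval -1.18 to -0.52), Lyz2 (-1.28, -1.81 to -0.76) and Mzb1 (-1.46, -2.07 to -0.85), each with a limma adjusted p of 0.28. Lyz2 stood at 54.5, 30.7, 21.1 and 29.6 FPKM in HMLS and at 62.4 to 117 in TM, with no overlap. Igj had a TM range of 10.3 to 73.7 (-2.08, -3.37 to -0.79, adjusted p = 0.42) and Cldn2 one of 38.4 to 68.6 (-1.18, -1.81 to -0.54, adjusted p = 0.41). Higher in HMLS were Scd1 (0.98, 0.56 to 1.41), Wwp1 (0.47, 0.24 to 0.69) and Olfr613, an olfactory receptor gene (0.62, 0.31 to 0.94), none called.

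**Figure D5:**
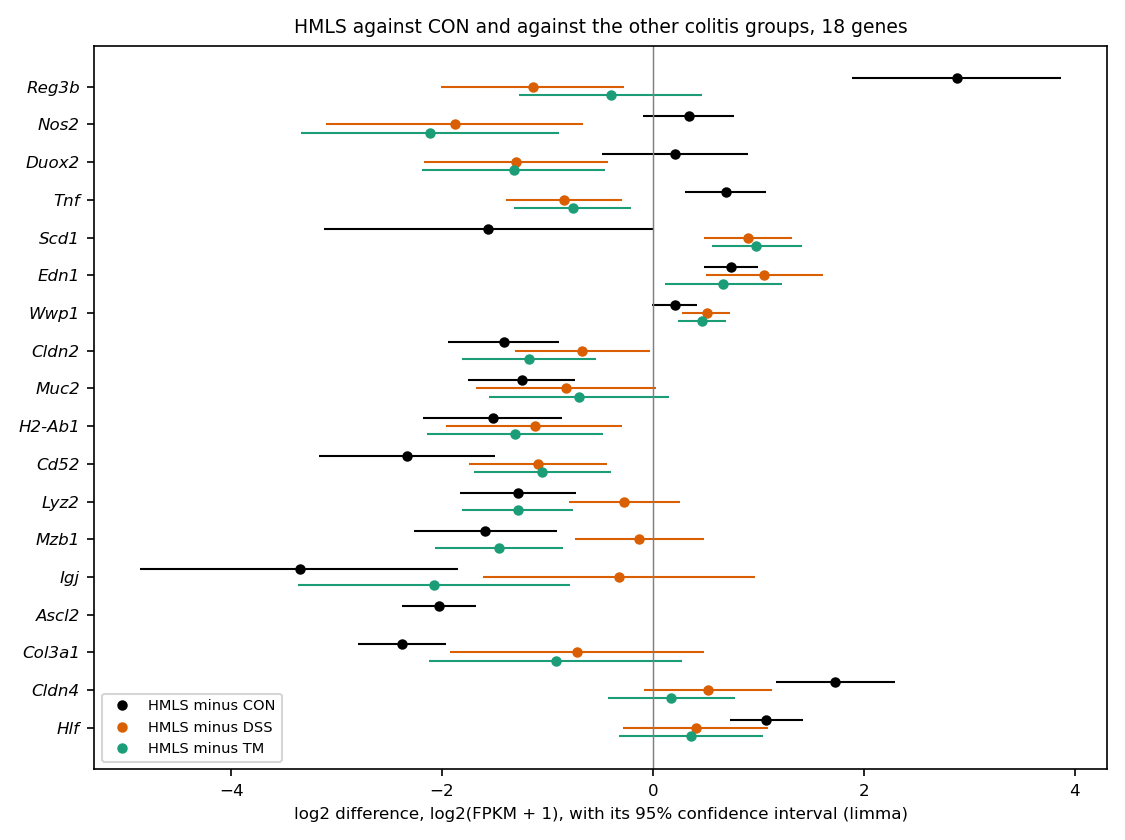
Difference in log2(FPKM + 1) with its 95% confidence interval from limma (x axis) for 18 genes, as HMLS minus CON (black), HMLS minus DSS (orange) and HMLS minus TM (green). Ascl2 was below the filter in the colitis groups and has only its difference from CON. Reg3b lies far above 0 against CON and below 0 against DSS, and no difference from DSS or TM passed the adjusted threshold.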

How the data were processed

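The 22 colon RNA-seq libraries (8 CON, 4 HMLS, 5 DSS, 5 TM) were grouped by their labels. Per the labels, frozen tissue was lysed in Trizol, and a stranded TruSeq kit for total RNA made the libraries. Software listed in the submitters' processing notes is bcl2fastq 2.20, Bowtie, TopHat2 2.0.13 and Cufflinks 2.2.0, with build mm10. The authors deposited a single table of 23997 genes that states no unit, and these deposited values were taken to be FPKM made by Cufflinks, per the submitters' processing notes and the decimals they hold. FPKM divides fragments by transcript length and library size, so a few very abundant transcripts can lower the rest. Each library's read count and percent of reads mapped, as deposited by the authors, were used as well. Read numbers per gene were not analysed here, so the depth behind each gene is unknown. The design text words the ages and weeks differently from the sample labels, which were followed.

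Genes reaching 1 FPKM in 4 or more libraries of a fit were tested with limma 3.58.1 (R 4.3.3) on log2(FPKM + 1), with intensity trend, robust variance and Benjamini-Hochberg adjustment over all genes tested. HMLS against CON and DSS against CON were fitted in their own 2 groups, and HMLS against DSS and TM in 1 fit of these 3 groups. The procedure was tested on simulated data. The 12 largest increases and the 12 largest decreases (without predicted genes, small RNAs, pseudogenes, antigen receptor segments and date-like names), up to 4 members of each of the 47 gene lists by p, and a panel of 40 genes were eligible to be named. Some genes that this rule selects are not reported here. Other genes named were chosen after their values were seen. The members, lists and panel were chosen with earlier results of these data known, and the histone group and 2 added scalings after seeing the data. Alternatives were another pseudocount, filter, scaling, model, covariate and leaving out each library. Gene positions are from GENCODE M21 and promoters from RefSeq, both on GRCm38.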

Additional observations from a re-analysis of the deposited data

Results flagged for a closer look

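For each named gene, the gap between the highest or lowest library of a group and its nearest neighbour was divided by the group's range, on log2(FPKM + 1). A gap share above 0.829 among 4 HMLS libraries or 0.526 among 8 CON libraries marks a library far from the others (Dixon's 95% limits). Of 294 groups of libraries examined 29 passed, and chance alone passes about 1 in 20.

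CON replicate 8 was far below the rest of its group for Cldn8 (gap share 0.584, 34.3 FPKM), Creb3l4 (gap share 0.561, 19.6 FPKM), Cx3cr1 (gap share 0.534, 0.715 FPKM), Gbp4 (gap share 0.608, 1.19 FPKM), H2-Ab1 (gap share 0.557, 13.2 FPKM), H2-Eb1 (gap share 0.540, 10.5 FPKM), Icam1 (gap share 0.644, 2.04 FPKM), Igj (gap share 0.697, 6.56 FPKM), Kdr (gap share 0.608, 2.54 FPKM), Mzb1 (gap share 0.633, 0.151 FPKM) and Nxpe2 (gap share 0.640, 17.6 FPKM). CON replicate 8 was far above the rest of its group for Gclc (gap share 0.590, 57.1 FPKM), Nr1i2 (gap share 0.540, 37.3 FPKM) and Tef (gap share 0.571, 20.6 FPKM). CON replicate 1 was far above the rest of its group for Hsp90aa1 (gap share 0.747, 243 FPKM), Hspa8 (gap share 0.592, 1608 FPKM), Mptx1 (gap share 0.903, 928 FPKM) and Mptx2 (gap share 0.777, 472 FPKM). CON replicate 3 was far below the rest of its group for Ddit4 (gap share 0.580, 7.98 FPKM). CON replicate 4 was far above the rest of its group for Rbm14-rbm4 (gap share 0.590, 2.36 FPKM). CON replicate 5 was far above the rest of its group for Gdf15 (gap share 0.546, 1.27 FPKM). HMLS replicate 3 was far below the rest of its group for F11r (gap share 0.904, 113 FPKM). HMLS replicate 6 was far below the rest of its group for Ccl6 (gap share 0.885, 45.1 FPKM) and Txndc5 (gap share 0.835, 54.8 FPKM). HMLS replicate 7 was far below the rest of its group for B4galt1 (gap share 0.873, 39.4 FPKM) and Bank1 (gap share 0.862, 0 FPKM). HMLS replicate 7 was far above the rest of its group for Ascl2 (gap share 1, 0.455 FPKM), but the other 3 were listed at 0, so any value above 0 would have given a gap share of 1. HMLS replicate 8 was far below the rest of its group for Tff3 (gap share 0.851, 849.6 FPKM). HMLS replicate 8 was far above the rest of its group for Hmgcs1 (gap share 0.891, 85 FPKM). CON replicate 8 accounts for 14 of the 29. Without it 4808 genes were called, and 95.3% of the calls made with all libraries were among them.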

How the results depend on the processing

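Without 1 library at a time, HMLS against CON called 3106 to 4808 genes (1566 to 2474 higher, 1540 to 2334 lower), HMLS against DSS 0 to 1 (0 to 1 higher, 0 to 0 lower), HMLS against TM 0 to 3 (0 to 1 higher, 0 to 2 lower) and DSS against CON 2493 to 4166 (1276 to 2125 higher, 1217 to 2041 lower). The HMLS replicate 3 library, when left out, gave the calls against DSS and TM. Of the 4565 calls against CON, requiring a fold above 1.2 left 1034 (488 higher, 546 lower). A replicate block on the shared numbers, fitted as a paired alternative, left 753 (319 higher, 434 lower). With the block, 0 immediate early genes and 0 glycolysis and hypoxia genes were higher, and 0 T cell and intraepithelial lymphocyte genes were lower. Larger counts shrank too: 5 junction genes and 3 circadian clock genes were higher. There were 29 histone, 15 extracellular matrix, 6 goblet cell and 4 DNA replication and mitosis genes lower. After the mean of each group was removed, same-numbered libraries correlated at 0.0797, -0.0694, -0.125 and -0.021, and none correlated best with its own number. So few pairs cannot show whether the numbers stand for anything the libraries share. Upper quartile scaling gave 1258 higher and 3571 lower, and over a fixed gene set 1510 higher. With percent mapped as a covariate 1540 were higher. The mapped percentage differed by -1.361 to -0.7896 points without 1 HMLS library, and missed the threshold without HMLS replicate 3, 6 or 8 (exact permutation p of 0.0606, 0.109 and 0.097). Genes at 1 FPKM or more differed by -463.9 to -325.2. Duox2 turned to -0.51 with the mapped covariate. Tff3 turned to -0.064 with upper quartile scaling and to -0.0203 over the fixed gene set. Of 3874 pairs of gene and setting in which the gene was tested, 181 lost their call, 14 gained one and 3 changed direction. Of the losses 59 came with the block, 39 with the fold requirement and 23 with the covariate. Fits in which S100a8 or Gdf15 left the filter are not among these pairs. Nor are Il1b, Aqp8, Slc26a3 and Zg16, which were not called. Without 1 library their differences from CON took either sign, as for Aqp8 (-1.378 to 0.4096) and Slc26a3 (-0.5438 to 0.4222). The causes were not tested. The depth behind a gene's FPKM is unknown, so genes near 1 FPKM carry an error that cannot be stated.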
